A study of Solanum lycopersicum with 2 samples.

Results

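E8 and E4 are tomato genes whose transcripts are known to climb when fruit begins to ripen and when it is exposed to ethylene. They were taken by locus, Solyc09g089580.2 for E8 and Solyc03g111720.2 for E4, so they are 2 of the 34725 gene identifiers in the table. RNA was sequenced from red ripe fruit of an ALMT9 overexpression line and of the wild type. ALMT9 is a member of a family of membrane channels that carry malate, an organic acid of tomato fruit, and the design text asks which genes belong to its network in ripening fruit. Each genotype has 1 library, harvested 49 days after flowering from 3 plants, and pooling of the plants is neither stated nor denied in the labels. The overexpression line is named OX1 in the labels, and the promoter that drives the transgene is not given there. All comparisons therefore describe 2 libraries, without a replicate check and without p-values.

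Tomato is a climacteric fruit, which ripens under the control of the gaseous hormone ethylene. It is made from ACC by ACC oxidase, sensed by receptors in the endoplasmic reticulum, and relayed through EIN2 to transcription factors of the EIN3/EIL family, which switch on ripening genes. E8 encodes a dioxygenase of the same protein family as ACC oxidase, but it is not one of the enzymes that form ethylene. Fruit in which E8 was suppressed is known to make more ethylene, and the E8 promoter is widely used to express transgenes in ripening fruit. E4 encodes a peptide methionine sulfoxide reductase, an enzyme that repairs oxidised methionine in proteins, and its transcript responds quickly to ethylene. Transcript levels of both genes are common readouts of ethylene response in fruit.

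The names were checked against a RefSeq gene table, in which none of the identifiers of the series could be matched directly. That table gives E4 as a synonym of MSRA on chromosome 3, the chromosome number in the identifier used here for E4. It gives E8/Sl27DOX as a synonym of ACO3 on chromosome 9, the chromosome number in the identifier used for E8. The symbol ACO3 there belongs to this E8 entry, and the name Sl27DOX refers to a role in the metabolism of steroidal glycoalkaloids, the bitter compounds of green tomato. A second entry carries the symbol E8, with the synonym E8-6, on chromosome 3. How reads shared by such related genes were counted is not given in the sources used here, so the level printed for E8 may include reads of relatives.

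The overexpression library held 19252026 reads and the wild type library 19736832, as worked out from the RPKM values themselves. The labels were checked on the targeted gene. The locus entered for ALMT9, Solyc06g072910.2, had 20.5 RPKM in the overexpression library and 0.0742 RPKM in the wild type. These levels rest on 270 recovered reads in the overexpression library and 1 in the wild type. The adjacent identifier, Solyc06g072920.1, was raised as well, with 39.0 RPKM in the overexpression library and 0.175 RPKM in the wild type. RPKM is a read count divided by the length of the gene model and by the reads of the library. Loci entered for ripening regulators and for ripening effectors had median levels at percentiles 97.9 and 99.6 of all genes in the overexpression library, against 98.5 and 99.6 in the wild type. Loci entered for green tissue (light-harvesting proteins and the Rubisco small subunit) were at most at 18.8 RPKM in the overexpression library and 13.8 RPKM in the wild type. Those entered for seed differed between the libraries, and their values are given beside the results below.

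E8 was lower in the overexpression library, at about the level that separates genes counted as 2-fold apart from the others. It had 2011 RPKM in the overexpression library and 3979 RPKM in the wild type. Counting intervals (exact Poisson, 95%) were 1996 to 2026 RPKM in the overexpression library and 3958 to 4000 RPKM in the wild type, so they lay far apart. These levels rest on 68246 reads in the overexpression library and 138446 reads in the wild type, at a recovered gene model length of 1763 bp. The RPKM ratio, overexpression over wild type, was 0.505, with an exact (Clopper-Pearson) 95% counting interval of 0.501 to 0.51. E8 was thus 49.5% lower. In whole fruit, fewer cells that express a gene and less RNA per cell cannot be told apart.

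E4 was lower in the overexpression library too, by a smaller margin. It had 1227 RPKM in the overexpression library and 1703 RPKM in the wild type, with counting intervals of 1211 to 1243 RPKM and 1685 to 1722 RPKM. The reads behind these levels were 22980 in the overexpression library and 32713 in the wild type, at a recovered length of 973 bp. The counting interval ran between 0.708 and 0.732 around an RPKM ratio of 0.72, so E4 was 28.0% lower. Counting intervals cover counting error only. They leave out differences between fruits, plants and library preparations, which 1 library per genotype cannot show, and PCR copies are not independent molecules.

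**Figure D1:**
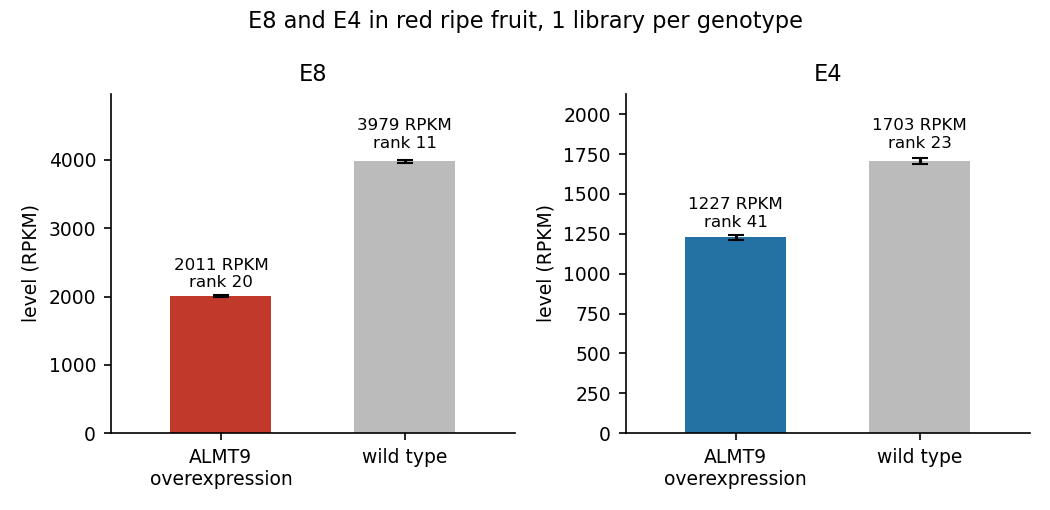
Levels of E8 (left) and E4 (right) in RPKM in the ALMT9 overexpression library and the wild type library; bars start at 0, error bars are exact 95% Poisson counting intervals, and the rank among all 34725 genes is printed over each bar. Both genes are lower in the overexpression library, E8 at 2011 against 3979 RPKM and E4 at 1227 against 1703 RPKM.

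Values were compared across genes as log2((overexpression + 1)/(wild type + 1)), with 1 RPKM added to each level, among the 17287 genes with a mean of at least 1 RPKM. On this scale the difference was -0.98 for E8 and -0.47 for E4. Neither member was called at least 2-fold apart, which means a log2 difference of 1 or more in size. Of all 17287 genes, 12.4% were called: 8.09% were at least 2-fold higher and 4.3% were at least 2-fold lower. E8 stood just inside the limit, with 29 genes between it and the limit on the lower side. In all 5 other scalings of the overexpression column its log2 difference lay between -1.07 and -1.0004 and did pass the limit, so the call for E8 depends on how the libraries are set to a common scale. E4 did not pass it in any of these 5 scalings, with values between -0.56 and -0.49.

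A direction beyond counting error is common in these libraries. The counting interval of the RPKM ratio lay wholly below 1 for both members, and it did so for 29.9% of all genes with a mean of at least 1 RPKM. A further 32.5% of these genes had an interval wholly above 1. The size of the difference set E8 further apart: 4.47% of genes had a lower log2 difference than E8, which placed it at rank 774 of 17287 counted from the lowest. For E4 the share was 17.1%, at rank 2960. The quartiles of all genes were -0.33 and 0.38, so E8 and E4 both lay below the lower quartile.

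Genes of like level were compared next. Over all genes with a mean of at least 1 RPKM, 48.8% were lower, 4.3% at least 2-fold lower and 8.09% at least 2-fold higher. Among the 200 genes nearest to E8 in mean log2 level, 13 had a lower log2 difference, 12 were at least 2-fold lower and 19 were at least 2-fold higher. Their median was 0.0033, so E8 lay low among highly expressed genes as well. Among the 200 genes nearest to E4, 45 had a lower log2 difference and the median was -0.0011. Few genes are as abundant as E8 and E4, so these sets are wide and overlap. They spanned means of 452 to 9892 RPKM for E8 and 443 to 4384 RPKM for E4. Of the 54 genes with a mean of at least 1000 RPKM, 31 were lower and 23 higher in the overexpression library. Of these 54 genes, 3 had a lower log2 difference than E8 and 16 a lower one than E4.

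**Figure D2:**
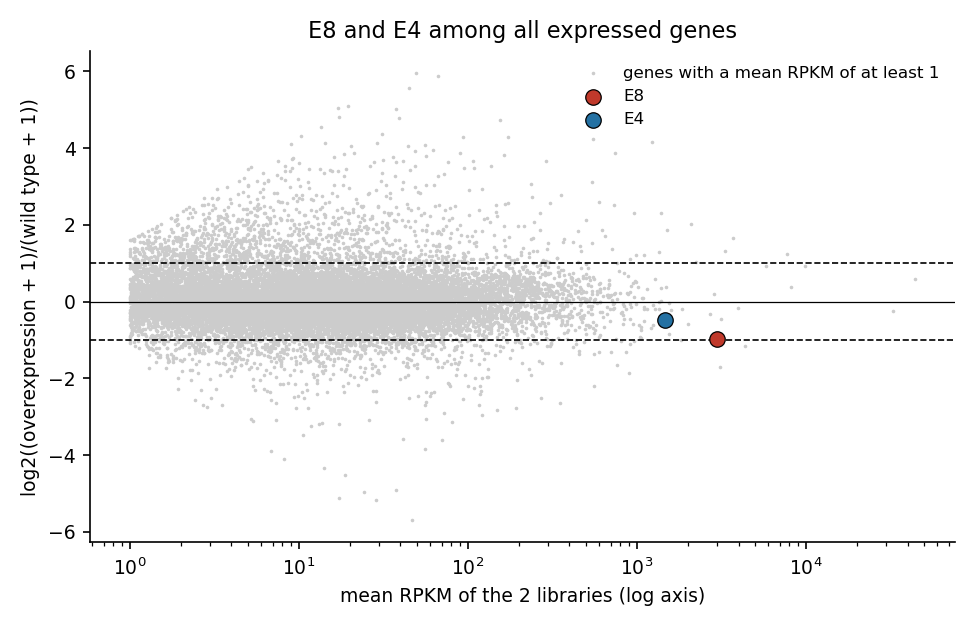
Log2 difference between the overexpression and wild type libraries (vertical axis, 1 RPKM added to each level) against mean RPKM (horizontal log axis) for the 17287 genes with a mean of at least 1 RPKM, with dashed lines at 2-fold. E8, at -0.98, lies just above the lower 2-fold line and E4, at -0.47, lies further above it, both at the right end among the most abundant transcripts.

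Both genes belonged to the most abundant transcripts of the fruit in each library. E8 ranked 20 among all 34725 genes in the overexpression library and 11 in the wild type. E4 ranked 41 in the overexpression library and 23 in the wild type. Among genes above 0, E8 stood in the top 0.0858% in the overexpression library and the top 0.0479% in the wild type, and E4 in the top 0.176% and the top 0.1%. The difference between libraries therefore moved these genes within the top of the list and did not take them out of it.

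In the overexpression library 19 genes lay above E8, against 10 in the wild type, and 9 lay above it in both. For E4, 40 genes lay above it in the overexpression library and 22 in the wild type, with 20 in common.

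**Figure D3:**
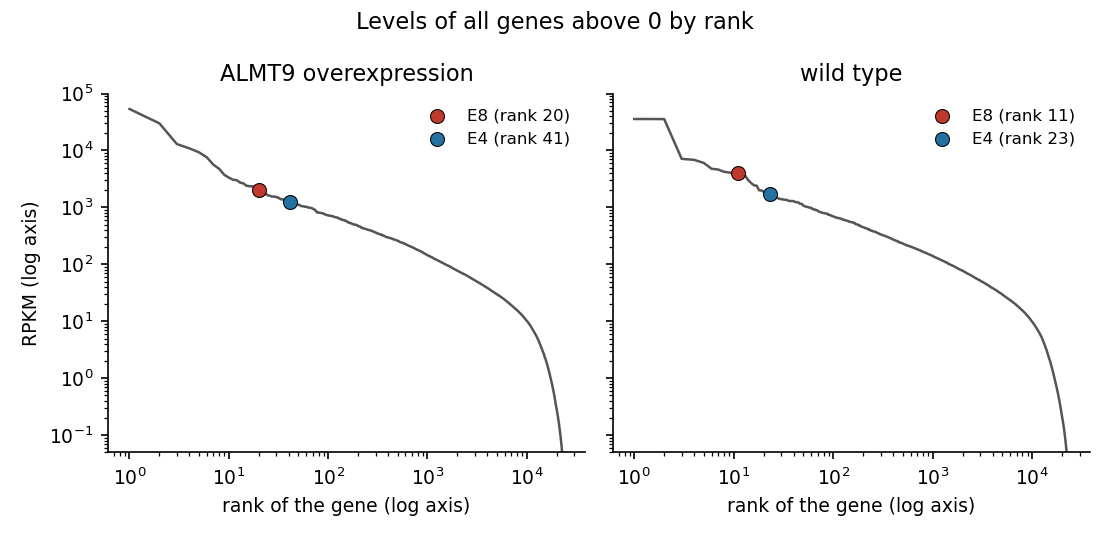
RPKM (vertical log axis) of all genes above 0 against their rank (horizontal log axis) in the overexpression library (left) and the wild type library (right). E8 moves between rank 20 (overexpression) and rank 11 (wild type) and E4 between rank 41 and rank 23, all in the steep upper part of the curve.

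In absolute terms the deficit of E8 was among the largest in the table, and rises were not ranked. A deficit in RPKM cannot exceed the wild type level, so only abundant genes can have a large one. The level of E8 was lower by 1968 RPKM in the overexpression library, and 3 of the 34725 genes had a larger deficit. E4 was lower by 477 RPKM, which ranked 30. E8 took 0.354% of all reads in the overexpression library (exact binomial 95% interval 0.352 to 0.357%) and 0.701% in the wild type (0.698 to 0.705%). E4 took 0.119% of the reads in the overexpression library (0.118 to 0.121%) and 0.166% in the wild type (0.164 to 0.168%). These shares rest on recovered totals and on the shortest gene length that gives whole reads. At a longer length they would be whole multiples of these values.

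The genes did not keep their proportion to each other. Per length, E8 was 1.64 times as abundant as E4 in the overexpression library and 2.34 times as abundant in the wild type. The RPKM ratio of E8 was 0.702 times that of E4, with a counting interval of 0.688 to 0.715. This proportion is taken within each library, so it does not depend on how the libraries are scaled. Summed, the genes held 3237 RPKM in the overexpression library and 5682 RPKM in the wild type. That was 0.367% of the RPKM sum of all genes in the overexpression library and 0.685% in the wild type.

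The other loci of the ethylene pathway were taken from lists of published tomato locus assignments. The identifiers are not paired with names in the sources used here, so these loci are given as members of lists. The 10 loci entered for ethylene formation, ACC synthases and ACC oxidases, had 7 members higher and 3 lower in the overexpression library, with 5 at least 2-fold higher and 0 at least 2-fold lower. Their median log2 difference was 0.92, against 0.016 over all genes with a mean of at least 1 RPKM. The share of members at least 2-fold higher can be read against 8.09% of all genes. The levels of the 10 loci summed to 3702 RPKM in the overexpression library and 1193 RPKM in the wild type. These sums lean most on 1 locus, which alone had 2363 RPKM in the overexpression library and 648 RPKM in the wild type. The next locus had 993 RPKM in the overexpression library and 305 RPKM in the wild type.

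E8 and E4 thus stood on the other side of 0 from most loci for ethylene formation. E8 had 0.543 times the summed level of these loci in the overexpression library and 3.34 times in the wild type. E4 had 0.331 times that sum in the overexpression library and 1.43 times in the wild type. None of the 10 loci had a lower log2 difference than E8, and 1 had a lower one than E4.

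The 16 loci entered for ethylene perception and signalling (receptors, their regulators, CTR1, EIN2, EIL factors and the EBF proteins that mark EIL factors for breakdown) lay on both sides of 0. Over all genes with a mean of at least 1 RPKM, 48.8% were lower and 12.4% were at least 2-fold apart in either direction. With 15 of the 16 loci at a mean of at least 1 RPKM, 8 were higher and 7 lower, and 0 were 2-fold apart in either direction. Their median log2 difference was 0.076, and it was -0.0096 with the libraries scaled to equal sums, so it has no firm sign. Their summed level was 1043 RPKM in the overexpression library and 1012 RPKM in the wild type. E8 alone had 1.93 times this sum in the overexpression library and 3.93 times in the wild type. Of these loci, 0 had a lower log2 difference than E8 and 2 a lower one than E4.

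Loci of ripening itself can be read against all genes with a mean of at least 1 RPKM, of which 48.8% were lower and 4.3% at least 2-fold lower in the overexpression library. The 7 loci entered for ripening regulators, transcription factors of the MADS-box, NAC, SBP and AP2 families, had 2 members higher and 5 lower, with 1 at least 2-fold lower and a median of -0.11. The 13 loci entered for ripening effectors, enzymes of the cell wall, carotenoids and aroma, had 4 members higher and 9 lower. Of these 13, 2 were at least 2-fold lower, 0 were at least 2-fold higher, and the median was -0.58. The median of the effectors thus lay between the values of E8 and E4. Of the 13 effector loci, 2 had a lower log2 difference than E8 and 8 a lower one than E4.

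E8 and E4 are not themselves among these 46 loci of ethylene and ripening. In the wild type, 1 of the 46 loci, an effector locus, lay above E8, and 3 lay above E4. In the overexpression library, 3 of the 46 loci lay above E8, 1 of them entered for ethylene formation and 2 for ripening effectors. For E4, 5 of the 46 loci lay above it there. Of the 45 loci with a mean of at least 1 RPKM, 3 had a lower log2 difference than E8 and 13 a lower one than E4.

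Loci entered for seed moved in the same direction as E8 and E4. The list holds 8 loci for storage globulins and oleosins, and 8 of 8 were lower in the overexpression library, 6 of them at least 2-fold, with a median log2 difference of -2.56. Over all genes with a mean of at least 1 RPKM, 48.8% were lower and 4.3% at least 2-fold lower. Their levels ranged between 0.58 and 12.1 RPKM in the overexpression library and between 6.69 and 93.0 RPKM in the wild type, and 0 of them were at 0 in either library. They summed to 29.0 RPKM in the overexpression library and 299 RPKM in the wild type, while E8 had 69.3 times that sum in the overexpression library and 13.3 times in the wild type. The part of a difference in seed content in the lower levels of E8 and E4 was not tested. The 14 loci entered for green tissue summed to 25.04 RPKM in the overexpression library and 18.0 RPKM in the wild type. Of these 14 loci, 5 were at 0 in the overexpression library and 4 in the wild type, and 3 had a mean of at least 1 RPKM, 2 of them higher and 1 lower.

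**Figure D4:**
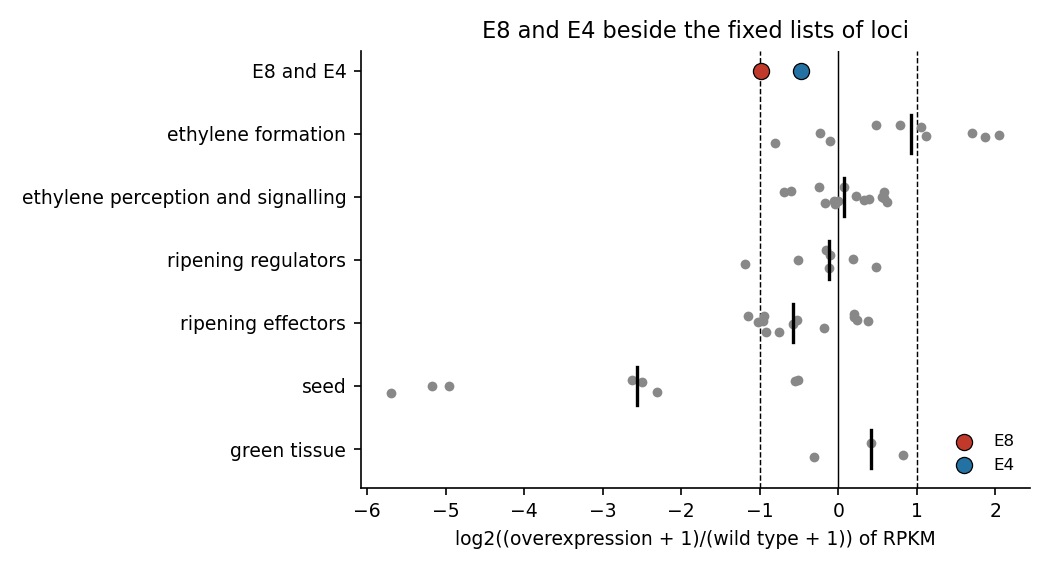
Log2 difference between the overexpression and wild type libraries (horizontal axis, 1 RPKM added to each level) of E8, of E4 and of the loci of 6 lists with a mean of at least 1 RPKM; black bars mark list medians and dashed lines 2-fold. E8 (-0.98) and E4 (-0.47) lie left of 0 on either side of the median of the ripening effectors (-0.58), while the median of ethylene formation lies at 0.92 and that of the seed loci at -2.56.

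The surroundings of the genes were read from the order of the identifiers, with 10 loci on either side. E8 was a lone peak. Its 20 neighbours reached at most 124 RPKM in the overexpression library and 35.3 RPKM in the wild type, and 9 of them were at 0 in both. Among the 10 neighbours with a mean of at least 1 RPKM, 5 were higher and 5 lower, and the median log2 difference was 0.19. The locus just before E8, Solyc09g089570.2, had 2.37 RPKM in the overexpression library and was listed at 0 in the wild type, and the locus just after E8 was listed at 0 in both.

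E4 shared its surroundings with 1 other abundant transcript. The locus 3 places before it, Solyc03g111690.2, had 3069 RPKM in the overexpression library and 2676 RPKM in the wild type. Its counting interval ran between 1.14 and 1.16 around an RPKM ratio of 1.15, so it lay above 1 where E4 lay below 1. This locus was entered among the ripening effectors, and the RefSeq table places a gene named PL 4 genes before MSRA. The other neighbours reached at most 68.1 RPKM in the overexpression library and 81.7 RPKM in the wild type. Of the 14 neighbours with a mean of at least 1 RPKM, 7 were higher and 7 lower, with a median log2 difference of 0.018. E4 and the 2 loci on either side of it all had negative log2 differences, between -0.93 and -0.054. Among these flanking loci, only Solyc03g111700.2 had a counting interval of the RPKM ratio wholly below 1, at 0.377 to 0.658. The intervals of the other flanking loci included 1, so their direction lay within counting error.

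**Figure D5:**
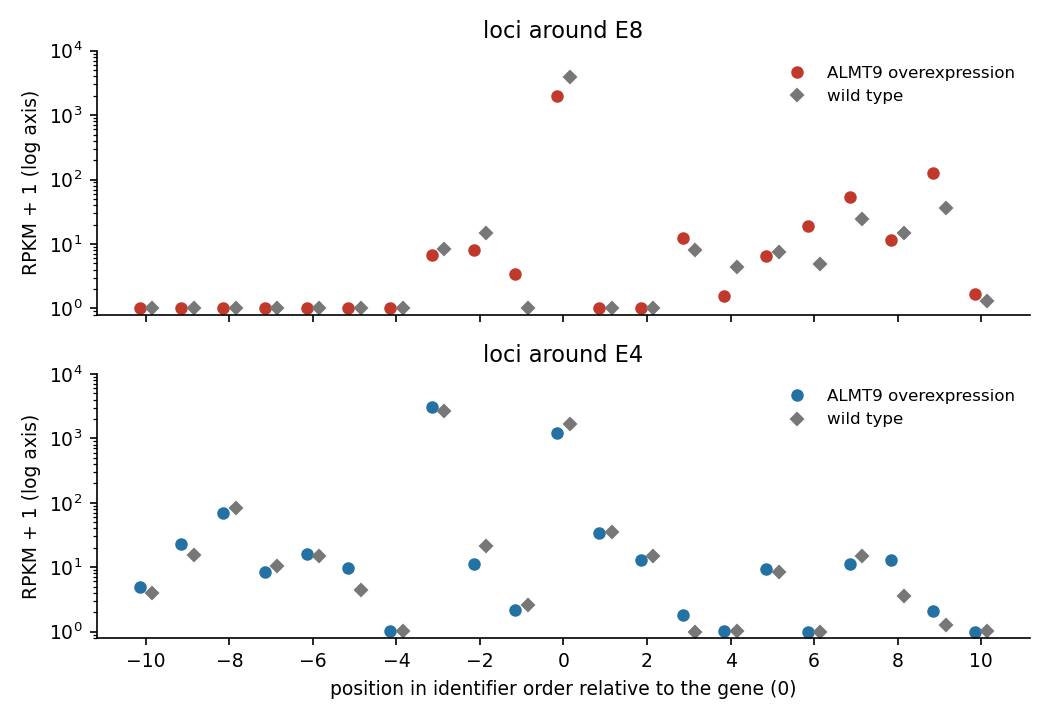
RPKM + 1 (vertical log axis) of the 10 loci before and after E8 (top) and E4 (bottom) in identifier order (horizontal axis, the gene itself at 0), with circles for the overexpression library and diamonds for the wild type. E8 stands far above all its neighbours, and E4 has 1 abundant neighbour 3 places before it, which is higher in the overexpression library (3069 against 2676 RPKM).

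For each gene the locus with the most similar pair of levels was looked up, as the smallest distance in log2(RPKM + 1) over the 2 libraries. For E8 this was Solyc09g066150.1, with 2002 RPKM in the overexpression library and 3759 RPKM in the wild type, at a distance of 0.0823. It followed E8 directly in rank in each library. For E4 it was Solyc12g010320.1, with 1262 RPKM in the overexpression library and 1445 RPKM in the wild type, at a distance of 0.24. No locus was thus as close to E4 as the nearest one was to E8.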

How the data were processed

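The values are RPKM as the authors deposited them, in 1 table with a column for each of the 2 libraries. Alignment was with TopHat, per the submitters' processing notes, which give no version. For the counter, genome build, annotation release and strand setting the entry is: not given in the sources used here. Levels of genes that overlap, lie antisense or resemble each other are for that reason uncertain. Columns were matched through sample titles, and groups come from the genotype label.

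RPKM values hold whole reads times a step set by gene length. Totals were taken as the largest at which the share of trial genes with whole lengths passed a fixed limit. Of 255 trial genes, 87.1% had whole lengths at these totals. The shares at 2 times (43.1%) and 3 times (65.5%) the totals fell short of the limit. Whole reads in both libraries were reached at some length from 60 bp upward for 24426 genes, out of 24429 above 0. The shortest length was used, so true read numbers can be whole multiples and intervals are then too wide. Shares of reads would then be larger by the same multiple. Recovered reads sum to 85.3% (overexpression) and 86.2% (wild type) of the totals. The recovery was also run on data simulated from these totals and from the recovered lengths, some of them doubled. Such a run cannot show whether the totals themselves are right.

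The pseudocount was 1 RPKM and the filter a mean of at least 1 RPKM. No test was run, since a genotype has 1 library, and genes were called by a fixed 2-fold rule. Named were E8, E4, the ALMT9 locus, the most similar locus for each member, and neighbours. The members and the lists were chosen with earlier results of these data known. The 6 lists hold 68 loci and could not be checked against the RefSeq table of 41476 genes, whose identifiers matched 0 of those used here. Promoter and protein sequences were not used here, so the planned motif search was not run. Alternatives covered the pseudocount, the filter, the fold limit, 5 scalings and the number of genes of like level. Python 3.11.15, numpy 2.4.6, scipy 1.17.1, pandas 2.3.3 and matplotlib 3.10.9 were used.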

Additional observations from a re-analysis of the deposited data

How the results depend on the processing

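E8 and E4 were lower in the overexpression library in all 8 alternatives run for each (3 pseudocounts and 5 scalings). None of these 8 could have changed the direction. A pseudocount adds the same amount to both levels. All 5 scalings lowered the overexpression column, by log2 factors between -0.089 and -0.016. The log2 difference of E8, -0.98, was -1.07 with equal sums, -1.04 without the 100 highest genes in the sums, -1.05 with equal medians, -1.0004 with equal upper quartiles and -1.02 with the trimmed mean, and it then passed 2-fold. That of E4, -0.47, was -0.56, -0.53, -0.54, -0.49 and -0.51 in the same order. The effector median, -0.58, was -0.67, -0.63, -0.64, -0.59 and -0.62. The regulator median, -0.11, was -0.20, -0.17 and -0.18 in the first 3. The perception median, 0.076, turned to -0.0096 with equal sums. All of these shifts follow the scaling factors, of which that for equal sums was furthest from 0, at -0.089 on the log2 scale. The seed median was -1.88 with a pseudocount of 5, and the green tissue median, 0.42 from 3 loci, was 0.0020 without a filter. Without a filter, 2.35% of genes lay below E8 and 9.61% below E4, since more genes near 0 enter. The 2142 genes 2-fold apart (1398 higher, 744 lower) were 1009 (667 and 342) with a pseudocount of 5, 1414 (860 higher) at a mean of at least 5 RPKM, 1050 (621 and 429) at 10 RPKM, 4982 (2819 and 2163) at 1.5-fold and 435 (341 and 94) at 4-fold. By reads not divided by length, E8 over E4 was 2.97 in the overexpression library and 4.23 in the wild type. Of all 139 values recomputed, 101 stayed within the limits set for them. The limits were counting intervals for log2 differences, list medians and ranks, binomial intervals over genes for percentages, and 1.5 times for gene counts. The ranks were bound to stay, since all genes above E8 and E4 pass every filter tried. E8 over E4 by reads was entered as moved without a limit. The total is therefore no measure of stability. No paired analysis was possible because there is 1 library per genotype, which also leaves no replicate to omit.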
